A study of Homo sapiens with 8 samples.

Results

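The integrin and laminin chain genes were followed in MP38 cells, a BAP1-mutant uveal melanoma (UM) cell line, after treatment with inhibitors of histone deacetylases (HDAC) or of BET bromodomain proteins. Members were taken by symbol alone, as every gene named for an integrin alpha chain, an integrin beta chain or a laminin alpha, beta or gamma chain. The rule found 38 genes among the 35238 symbols of the count table, 26 for integrins (18 alpha and 8 beta chains) and 12 for laminins (5 alpha, 4 beta and 3 gamma chains). MP38 cells received 40 nM romidepsin or 40 nM quisinostat, both HDAC inhibitors, or 1200 nM mivebresib, a BET inhibitor, for 24 h, while control cells received the vehicle (0.1% DMSO) for the same time. Each group held 2 bulk RNA-seq libraries, each made from its own well of this single line, so the p-values measure the spread between wells. In bulk RNA, fewer cells expressing a gene and less RNA per cell cannot be told apart.

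Integrins are receptors of the cell surface that pair an alpha with a beta chain and tie the extracellular matrix to the actin cytoskeleton. Laminins are trimers of an alpha, a beta and a gamma chain and form the core network of basement membranes, where integrins alpha3beta1, alpha6beta1, alpha6beta4 and alpha7beta1 are their main integrin receptors. UM cells arise from melanocytes of the eye and meet laminin and collagen as they leave the uveal tract.

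The libraries held 28483235 to 29359024 counts. Of 7 melanocytic marker genes, 6 exceeded 1 CPM (counts scaled to a common library size with TMM factors) and their summed level was 3563 to 5452 CPM in all 8 libraries, most of it from TYRP1. Within this list MITF, a master regulator of melanocytes, was at 350 ± 0.89 CPM in the control (SD, n = 2), 301 ± 11 with romidepsin, 133 ± 0.84 with quisinostat and 126 ± 3.1 with mivebresib. SOX10 was at 209 ± 10, 159 ± 14, 110 ± 5.1 and 55.0 ± 3.1 CPM and MLANA at 206 ± 19, 187 ± 14, 99.6 ± 1.3 and 81.8 ± 2.3 CPM in the same order, so these 3 markers were lower in the quisinostat and mivebresib libraries than in the control. The rest of the list did not all follow. PMEL was at 505 ± 119, 557 ± 52, 501 ± 42 and 354 ± 5.6 CPM. TYR was at 2.60 ± 1.2, 3.13 ± 0.25, 3.22 ± 0.41 and 1.58 ± 0.096 CPM and TYRP1 at 3550 ± 800, 3676 ± 191, 2988 ± 339 and 3118 ± 63 CPM. With quisinostat PMEL, TYR and TYRP1 overlapped the control. With mivebresib TYRP1 did, while PMEL and TYR were lower. Summed markers of platelets stayed below 0.67 CPM with 3 of 4 at 0, and those of keratinocytes reached 0.309 CPM at most. Among the 8 leukocyte markers, CD68 and NCAM1 alone exceeded 1 CPM, and CD3E and MPO were at 0 in every library. The sums of 5 fibroblast markers were highest with quisinostat, at 34.6 and 35.4 CPM against 14.1 and 22.0 CPM in the control. They came mainly from PDGFRA and COL1A1, while COL3A1, DCN and LUM reached 0.159 CPM at most in any library. Sums of 5 endothelial markers also moved, from 0.602 and 0.913 CPM in the control to 5.16 and 5.86 CPM with quisinostat, with KDR as their main source and CDH5 at 0. The part of these markers in the results was not tested.

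One feature of the libraries touched nearly every member. In the control, 19 of the 20 members with a mean level of at least 5 CPM were higher in library 2 than in library 1, with a median log2 ratio of 0.58, whereas the median over all 15085 tested genes was 0. The ratio ran from -0.60 for ITGAE to 1.11 for LAMB3. Romidepsin libraries differed the other way, with 1 of 20 members higher in library 2 and a median of -0.23, and the medians were 0.20 for quisinostat and 0.068 for mivebresib. Long genes as a whole shared the direction to a smaller degree, since the median control ratio was 0.14 in the 20% of genes with the longest summed exons and -0.19 in the 20% with the shortest, and 10 of the 30 tested members lay among the longest. Results against the control are therefore also given without each control library, as counts and for some members only. A member given without such a result was not thereby stable to the choice of control library.

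**Figure D1:**
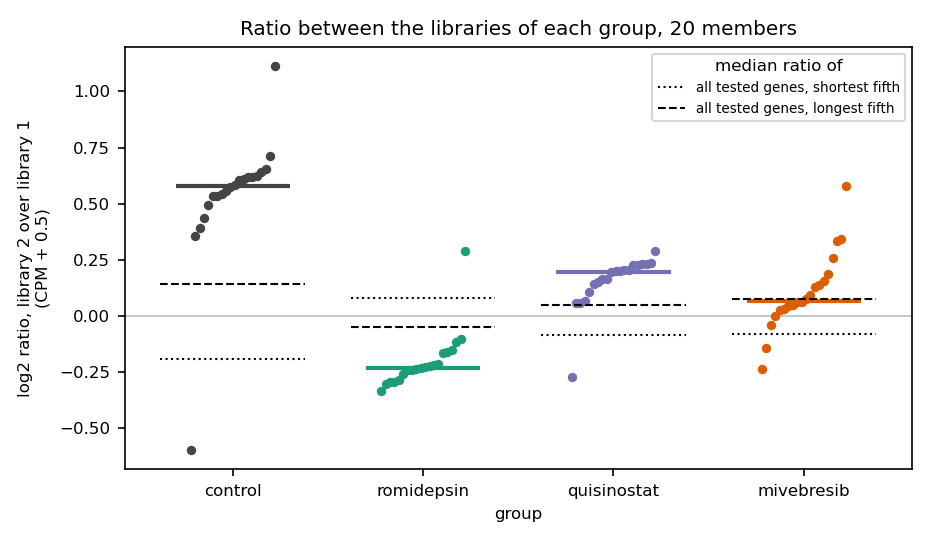
The log2 ratio of library 2 over library 1, from TMM-scaled CPM plus 0.5, is plotted for 20 members in each group (points), with the members' median as a thick bar. Dotted and dashed lines give the medians of all tested genes in the shortest and longest 20% by exon length. Control members sit around 0.58 and romidepsin members around -0.23, both outside the lines for long and short genes.

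Of the 38 members, 30 passed the filter on low counts, and 27 of these had at least 10 counts in both libraries of every group. The other 8 (ITGA2B, ITGA8, ITGA10, ITGAL, ITGAM, ITGB6, ITGB7 and LAMB4) had at most 10 counts in any library and were not tested. ITGA2B, ITGAL, ITGAM and ITGB7 encode chains of platelets and leukocytes. ITGB6, a beta chain of epithelia, had 0 counts in both control libraries and 7 and 8 counts with quisinostat, which is at least 2.21-fold higher when each control library is set to the floor of 3 counts.

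Romidepsin raised 5 of the 30 tested members and lowered none at an adjusted p below 0.05 (edgeR quasi-likelihood test, Benjamini-Hochberg adjustment over all tested genes). Over all genes, 15.2% were called higher and 15.8% lower. DESeq2 and limma-voom also called no member lower with romidepsin, and ITGAE alone was lower at an unadjusted p below 0.05 in edgeR. Quisinostat raised 9 and lowered 4, against 28% and 25.1% of all genes. Mivebresib raised ITGA3 alone and lowered 9, against 22.2% and 24.1%. With a log2 fold change (FC) past 1.5 as well, 1 member was higher with romidepsin (3.77% of all genes higher and 0.312% lower), 4 were higher and 1 lower with quisinostat (11.2% and 1.03%), and 2 were lower with mivebresib (3.96% and 4.36%). Among the 4 groups, 19 of the 30 differed, against 74.2% of all genes. Against the control at an adjusted p below 0.05, the share of members called was close to or below that of all genes in each direction except the falls with mivebresib, at 30% of tested members. Between drugs, 46.7% of tested members were lower with mivebresib than with romidepsin, against 25.2% of all genes. For quisinostat below romidepsin the shares were 20% and 14.6%. An excess of calls was not tested, and what follows concerns which chains moved.

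The number of members called moved with the control library used. The median log2 FC of the tested members was 0.32 with romidepsin, 0.25 with quisinostat and -0.21 with mivebresib in the full fit. Without control library 1 it was 0.045, 0.0033 and -0.47, and without control library 2 it was 0.62, 0.52 and 0.13. Shares of all genes in this paragraph join both directions, so they give no background for the split into rises and falls. Without control library 1, romidepsin raised 4 members and lowered 1, quisinostat raised 7 and lowered 8, and mivebresib raised 1 and lowered 13, while 28.2%, 53.2% and 45.4% of all genes were called in either direction. Without control library 2, romidepsin raised 16 and lowered 1, quisinostat raised 17 and lowered 5, and mivebresib raised 9 and lowered 7, against 42.6%, 56.6% and 50.6% of all genes. For mivebresib, 8 of its 10 calls were also made without control library 2 and all 10 without control library 1.

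**Figure D2:**
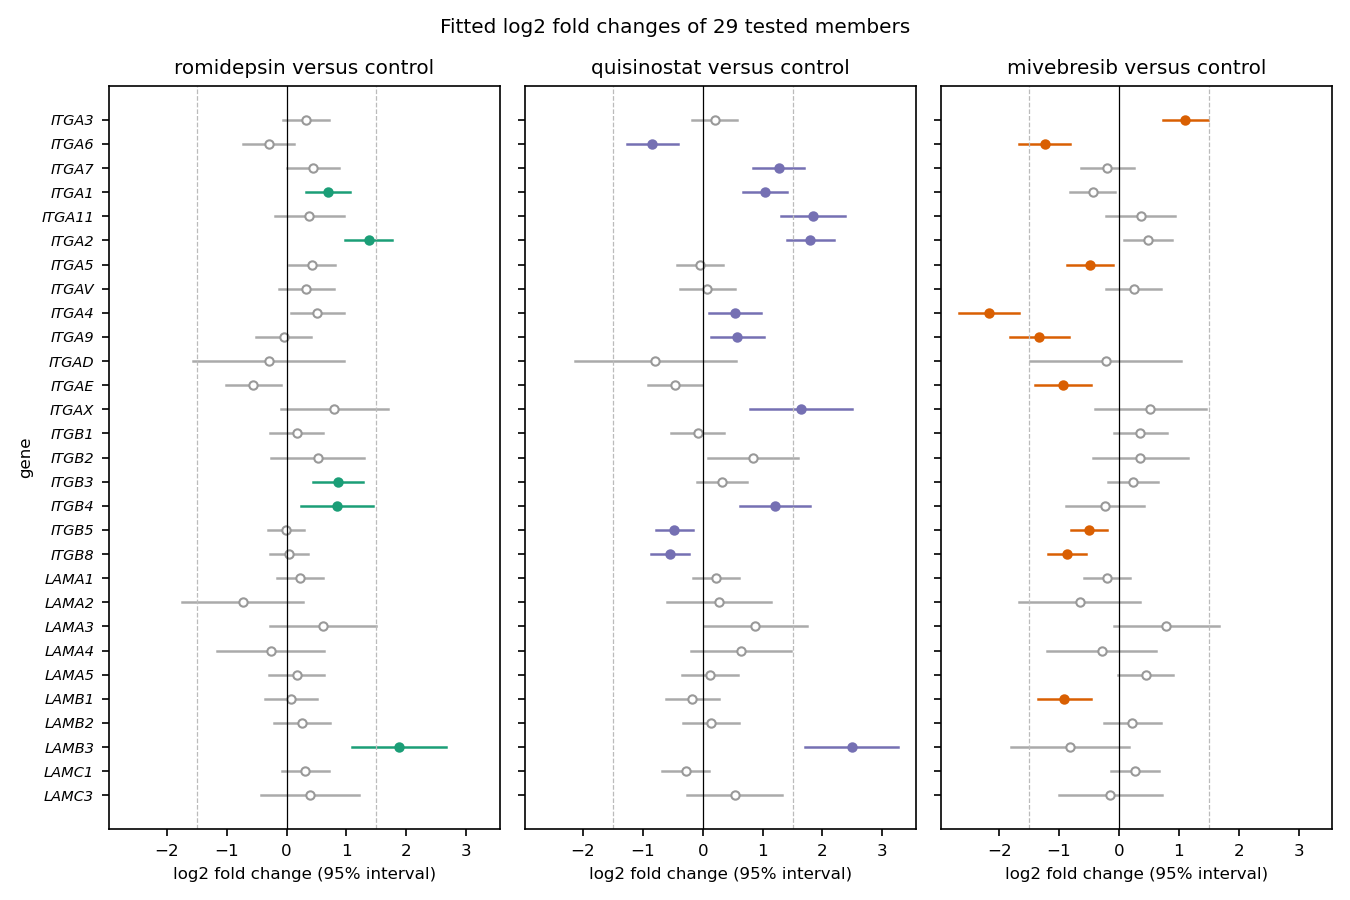
Fitted log2 FC values (points) of 29 tested members with their 95% intervals (lines) are shown for each drug against the control, with filled, coloured points where the adjusted p was below 0.05 and dashed lines at a log2 FC of 1.5 in either direction. Collagen-binding alpha chains and LAMB3 lie to the right with quisinostat, and ITGA4, ITGA9 and ITGA6 lie to the left with mivebresib while ITGA3 lies to the right.

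Upstream sequence was taken from RefSeq (GRCh38.p14), whose promoter table held windows for 26 of the 38 members. For the 4 members past both thresholds that had a window, the bases before the annotated gene start are printed 5′ to 3′ on the strand of the gene, since these genes showed the largest fitted changes. Capitals mark matches to any of 5 short motifs, searched on both strands. The GC box was spelled GGGCGG, the TATA box was spelled TATAAA, the AP-1 site was spelled TGACTCA and the E-box was spelled CACGTG, while the CCAAT box is its own spelling. No matches in these stretches overlapped each other.
LAMB3 (chr1:209652467-209652675, minus strand, 209 bases): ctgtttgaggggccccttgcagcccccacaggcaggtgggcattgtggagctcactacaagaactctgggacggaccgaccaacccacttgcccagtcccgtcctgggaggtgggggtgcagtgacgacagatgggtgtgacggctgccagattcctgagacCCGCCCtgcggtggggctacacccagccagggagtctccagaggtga
ITGA2 (chr5:52989102-52989325, plus strand, 224 bases): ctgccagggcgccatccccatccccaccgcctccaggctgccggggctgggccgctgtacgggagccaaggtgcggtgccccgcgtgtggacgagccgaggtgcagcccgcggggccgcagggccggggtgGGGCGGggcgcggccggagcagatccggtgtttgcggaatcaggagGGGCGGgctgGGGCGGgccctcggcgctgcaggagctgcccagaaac
ITGA11 (chr15:68432164-68432413, minus strand, 250 bases): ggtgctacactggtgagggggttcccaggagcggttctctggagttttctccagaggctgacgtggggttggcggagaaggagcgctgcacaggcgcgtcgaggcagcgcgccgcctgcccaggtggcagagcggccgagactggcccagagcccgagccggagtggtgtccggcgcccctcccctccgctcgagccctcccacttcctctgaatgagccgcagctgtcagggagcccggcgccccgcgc
ITGA4 (chr2:181457136-181457201, plus strand, 66 bases): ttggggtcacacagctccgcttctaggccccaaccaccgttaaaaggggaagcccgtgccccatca
The stretch of LAMB3 held 1 GC box and that of ITGA2 held 3, while the stretches of ITGA11 and ITGA4 held none of the motifs. LAMB3 had further windows that are not printed. The one at chr1:209651375-209651624, inside the annotated gene, held 1 GC box, 1 CCAAT box and 1 AP-1 site. The full window of ITGA2 held 4 GC boxes. Stretches cut short at the gene start, such as the 66 bases of ITGA4, are not comparable with full windows. Over all 35116 windows of 250 bases, 42.6% held the GC box, 32% the CCAAT box, 10.7% the TATA box, 4.2% the AP-1 site and 6.34% the E-box. Of the 33 member windows, 17 held the GC box, 5 the CCAAT box, 2 the TATA box, 2 the AP-1 site and 1 the E-box. A match describes the letters only.

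All 3 tested collagen-binding alpha chains rose with quisinostat, and ITGA1 and ITGA2 also rose with romidepsin. ITGA2, the alpha2 chain of the main collagen I receptor, was at 8.998 and 12.9 CPM in the control, 30.7 and 25.9 with romidepsin, 34.8 and 41.1 with quisinostat and 16.0 and 14.5 with mivebresib. Both HDAC inhibitor groups lay above every control library. Its log2 FC was 1.37 (SE 0.17, adjusted p = 0.000794) with romidepsin and 1.80 (SE 0.17, adjusted p = 6.01e-05) with quisinostat. ITGA1, the alpha1 chain, which binds collagen IV of basement membranes, was at 66.2 and 96.3 CPM in the control, 141.7 and 121.1 with romidepsin, 161.5 and 174.1 with quisinostat and 58.7 and 61.2 with mivebresib. It rose by a log2 FC of 0.69 (SE 0.16, adjusted p = 0.013) with romidepsin and 1.05 (SE 0.16, adjusted p = 0.000798) with quisinostat, and the romidepsin call was lost without romidepsin library 1 and in a fit of only the romidepsin and control libraries. ITGA11, a receptor chain for fibrillar collagen best known from fibroblasts, was at 1.74 and 2.45 CPM in the control, 3.30 and 2.14 with romidepsin, 7.15 and 7.80 with quisinostat and 2.82 and 2.55 with mivebresib. Only the quisinostat libraries stood clear of all others, with a log2 FC of 1.84 (SE 0.23, adjusted p = 0.000257). The fibroblast marker sum was also highest with quisinostat, mainly from PDGFRA and COL1A1 as given above, and a link to ITGA11 was not tested. ITGA1 and ITGA2 are neighbours on chromosome 5, with 30115 bases between them (GRCh38). The exons of ITGA1 share 475 bases with PELO on the same strand, which had 1851 to 2906 counts per library. PELO rose with quisinostat by a log2 FC of 0.30 (adjusted p = 0.0126). It was not called with romidepsin (0.031) or mivebresib (-0.093). The part of shared reads in the ITGA1 values was not tested.

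The laminin-binding alpha chains went in different directions. ITGA3, the alpha3 chain, was at 289 and 419.6 CPM in the control, 469 and 418 with romidepsin, 378 and 436 with quisinostat and 758 and 773 with mivebresib. Both mivebresib libraries lay above every other library, and the log2 FC was 1.11 (SE 0.16, adjusted p = 0.000833). It stayed between 0.87 and 1.40 in every alternative fit. ITGA6, the alpha6 chain, was at 149.6 and 234 CPM in the control, 165 and 147 with romidepsin, 98.4 and 115 with quisinostat and 79.3 and 83.5 with mivebresib. It fell by 0.84 on the log2 scale with quisinostat (SE 0.19, adjusted p = 0.00518) and by 1.24 with mivebresib (SE 0.19, adjusted p = 0.000901). With romidepsin its libraries overlapped the control, and it was called lower there without control library 1. ITGA7, the alpha7 chain known from muscle, was at 17.9 and 28.4 CPM in the control, 33.9 and 28.997 with romidepsin, 52.7 and 59.0 with quisinostat and 20.5 and 19.9 with mivebresib. Quisinostat raised it by a log2 FC of 1.27 (SE 0.19, adjusted p = 0.00063). ITGA7 shares 44 exon bases with METTL7B and 7 with BLOC1S1 on the opposite strand.

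Alpha4 and alpha9 form a subfamily of their own that binds VCAM1, fibronectin variants and tenascin, and both chains fell with mivebresib and rose with quisinostat. ITGA4 was at 20.4 and 31.3 CPM in the control, 40.8 and 32.9 with romidepsin, 34.6 and 40.6 with quisinostat and 5.45 and 6.04 with mivebresib. Both mivebresib libraries were far below the other 6. The log2 FC with mivebresib was -2.17 (SE 0.22, adjusted p = 0.000104), and it ran from -2.45 to -1.83 over the alternative fits, all of which called it. With quisinostat ITGA4 was called at 0.54 (SE 0.19, adjusted p = 0.0429), a call lost on leaving out any 1 of 7 of the 8 libraries. ITGA9 was at 11.3 and 14.6 CPM in the control, 13.6 and 11.4 with romidepsin, 17.9 and 20.7 with quisinostat and 4.02 and 6.26 with mivebresib. Mivebresib lowered it by 1.33 on the log2 scale (SE 0.22, adjusted p = 0.0013), and quisinostat raised it by 0.58 (SE 0.19, adjusted p = 0.0346), a call lost without control library 1 or either quisinostat library.

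Of the alpha chains that read the RGD motif of fibronectin and vitronectin, ITGAV had the highest group means of the alpha chains per kb of exon, at 73.2 ± 20 CPM per kb in the control (SD, n = 2) and 77.0 to 92.0 in the drug groups. With mivebresib it was at 86.9 ± 14 CPM per kb beside 78.1 ± 1.1 for ITGA3, and ITGA3 was the higher of the pair in mivebresib library 1. No drug comparison called ITGAV, though without control library 2 it was called higher with romidepsin and with mivebresib. ITGA5, the fibronectin receptor chain, was at 60.5 and 93.2 CPM in the control, 107 and 99.9 with romidepsin, 72.9 and 76.3 with quisinostat and 54.2 and 55.9 with mivebresib. Its fall with mivebresib (log2 FC -0.48, SE 0.17, adjusted p = 0.0464) was lost in 11 of 16 alternative fits. Among chains named for leukocytes, ITGAE, the alphaE chain of lymphocytes in epithelia, was at 21.8 and 14.2 CPM in the control, 10.99 and 13.5 with romidepsin, 14.3 and 11.7 with quisinostat and 9.44 and 9.42 with mivebresib. It fell by 0.93 with mivebresib on the log2 scale (SE 0.20, adjusted p = 0.00605). ITGAX, the alphaX chain of myeloid cells, was at 0.673 and 0.767 CPM in the control, 1.72 and 0.792 with romidepsin, 1.99 and 2.52 with quisinostat and 1.06 and 1.01 with mivebresib. It rose with quisinostat (log2 FC 1.64, SE 0.37, adjusted p = 0.00518) from 19 and 21 counts to 63 and 79. PTPRC, which marks all leukocytes, was at 0.126 CPM in the control and 0.286 CPM with quisinostat.

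**Figure D3:**
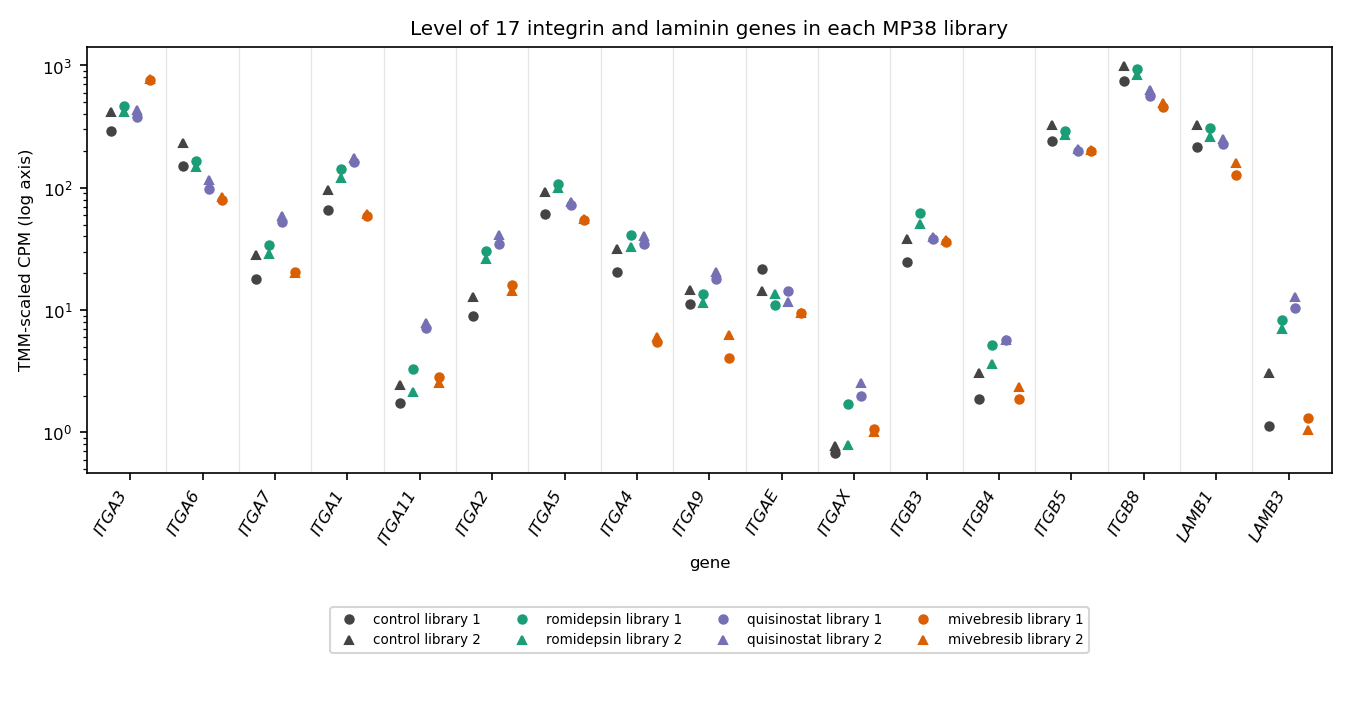
TMM-scaled CPM on a log axis of 17 members in each of the 8 libraries, with circles for library 1 and triangles for library 2 of the control, romidepsin, quisinostat and mivebresib groups. ITGA3 is highest and ITGA4 and ITGA9 lowest with mivebresib, and LAMB3, ITGA2 and ITGA11 are highest with quisinostat.

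Of the 6 tested beta chains, ITGB5 and ITGB8 fell with quisinostat and with mivebresib, and ITGB4 rose with both HDAC inhibitors. ITGB1, the partner of most of the alpha chains above, was at 738 and 1122 CPM in the control, 1151 and 939 with romidepsin, 819.8 and 938 with quisinostat and 1123 and 1252 with mivebresib, and no drug comparison called it. This depended on the control libraries, since ITGB1 was called lower with quisinostat without control library 1 and higher with romidepsin and mivebresib without control library 2. ITGB8, which pairs with alphaV and activates latent TGF-beta, was at 751 and 984 CPM in the control, 937 and 844 with romidepsin, 558 and 626 with quisinostat and 460.005 and 490.2 with mivebresib. Both quisinostat and mivebresib libraries lay below all control and romidepsin libraries. ITGB8 fell by 0.55 on the log2 scale with quisinostat (SE 0.14, adjusted p = 0.00965) and by 0.87 with mivebresib (SE 0.14, adjusted p = 0.00118). ITGB5, another partner of alphaV, was at 241 and 326 CPM in the control, 293 and 270.3 with romidepsin, 200.2 and 208 with quisinostat and 198 and 202 with mivebresib. It fell by 0.47 with quisinostat (SE 0.13, adjusted p = 0.0164) and by 0.50 with mivebresib (SE 0.13, adjusted p = 0.0148). Scaling by library size alone, or leaving out quisinostat library 1, ended the quisinostat calls of both ITGB5 and ITGB8, and leaving out either mivebresib library ended the mivebresib call of ITGB5. ITGB3, a further partner of alphaV, was at 24.5 and 37.9 CPM in the control, 62.2 and 50.9 with romidepsin, 38.2 and 39.8 with quisinostat and 36.0 and 37.2 with mivebresib. Romidepsin alone raised it past the test (log2 FC 0.86, SE 0.18, adjusted p = 0.00869), a call lost without romidepsin library 1, and without control library 2 all 3 drugs were called higher. ITGB4, which joins alpha6 in the hemidesmosome, was at 1.88 and 3.07 CPM in the control, 5.22 and 3.65 with romidepsin, 5.73 and 5.67 with quisinostat and 1.87 and 2.34 with mivebresib. It rose with quisinostat (log2 FC 1.21, SE 0.26, adjusted p = 0.00419), while the romidepsin call (0.84, SE 0.26, adjusted p = 0.0398) was lost in 8 of 16 alternative fits.

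Among laminin chains, LAMB3, the beta chain of epithelial laminin-332, showed the largest fitted rise among the 30 tested members with each HDAC inhibitor. It was at 1.13 and 3.03 CPM in the control (32 and 83 counts), 8.31 and 6.99 with romidepsin (242 and 203 counts), 10.5 and 12.9 with quisinostat (330 and 404 counts) and 1.32 and 1.04 with mivebresib (36 and 29 counts). All 4 libraries of the HDAC inhibitors lay above the other 4. The log2 FC was 1.88 (SE 0.35, adjusted p = 0.0042) with romidepsin and 2.49 (SE 0.34, adjusted p = 0.000352) with quisinostat, and every alternative fit called both. Without control library 1 the values were 1.36 and 1.94, and without control library 2 they were 2.75 and 3.35. LAMA3, the alpha chain of that trimer, was at 1.19 ± 0.48 CPM in the control (SD, n = 2) and 2.19 ± 0.55 with quisinostat, and was called with no drug, but with quisinostat and mivebresib without control library 2.

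The abundant laminin chains were those of the general basement membrane. LAMB1 was at 215.9 and 323 CPM in the control, 309 and 258 with romidepsin, 226 and 251 with quisinostat and 126 and 159.97 with mivebresib. Both mivebresib libraries lay below all others, with a log2 FC of -0.91 (SE 0.19, adjusted p = 0.00526), a call lost without mivebresib library 1. LAMB2, LAMC1, LAMA1 and LAMA5 were at 169 ± 58, 285 ± 77, 61.2 ± 16 and 133 ± 40 CPM in the control (SD, n = 2), and no drug comparison with the control called them. Without control library 1, LAMC1 was called lower with quisinostat and LAMA1 lower with mivebresib. Without control library 2, all 4 were called higher with romidepsin, LAMB2, LAMA1 and LAMA5 with quisinostat, and LAMB2, LAMC1 and LAMA5 with mivebresib. LAMB1 shares 70 exon bases with DLD, and LAMA5 shares 244 with ADRM1, each on the opposite strand. With mivebresib DLD rose by a log2 FC of 0.30 and ADRM1 by 0.44 (adjusted p = 0.0124 and 0.00675). The 12 tested members not given library by library by the naming rule had log2 FC from -0.73 to 0.61 with romidepsin, from -0.79 to 0.88 with quisinostat and from -0.66 to 0.79 with mivebresib.

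In comparisons of the drugs with each other, the control libraries gave none of the levels compared. They still entered the filter on low counts, the TMM factors and the estimate of the spread. Quisinostat exceeded romidepsin for 3 members and was below it for 6, against 21% and 14.6% of all genes. ITGA11 (log2 FC 1.46, SE 0.22, adjusted p = 0.00168) and ITGA7 (0.83, SE 0.18, adjusted p = 0.00924) were higher and LAMC1 was lower (-0.60, SE 0.17, adjusted p = 0.0273) with quisinostat. The LAMC1 call was lost in 5 of 16 alternative fits, with library size alone and without any 1 of the 4 libraries compared, and that of ITGA7 without romidepsin library 2 or quisinostat library 2. The split depended on scaling, since library size alone gave 6 higher and 2 lower. There the median log2 FC of all genes was 0.19, against 0.058 in the full fit. Leaving out 1 quisinostat or romidepsin library left 2 to 4 calls, and a fit of only the 4 libraries compared gave 14. Mivebresib was above romidepsin for ITGA3 alone and below it for 14 members (46.7% of those tested), against 23.7% and 25.2% of all genes. Mivebresib was above quisinostat for ITGA3 and LAMC1 and below it for 10 members, against 26.2% and 31.5% of all genes. Library size alone gave 1 higher and 17 lower, with a median log2 FC of all genes of -0.21 against -0.033 in the full fit. The number of calls also moved when either control library was left out. The LAMC1 call against quisinostat was lost in 4 of 16 alternative fits. ITGA3 was higher with mivebresib by a log2 FC of 0.79 than with romidepsin (SE 0.16, adjusted p = 0.00455) and by 0.91 than with quisinostat (SE 0.16, adjusted p = 0.00164). ITGA4 was lower by 2.68 and 2.71 (SE 0.22 for both, adjusted p = 3.15e-05 and 1.99e-05) and LAMB3 by 2.69 and 3.30 (SE 0.39 for both, adjusted p = 0.000481 and 9.91e-05). These 6 differences were called in all 16 alternative fits.

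The makeup of each class of chains varied less between the control libraries than the levels did for the abundant chains. Shares were computed in each library from CPM per kb of exon, summed over the class, and are given without a test. In the control ITGA3 made up 21.8 ± 0.24% of the integrin alpha chains (SD, n = 2), with 22.0% and 21.6% in its libraries, and with mivebresib it made up 39.9 ± 2.7%, with 41.8% and 38.0%. ITGA6 held 17.6 ± 0.72% in the control, 12.0 ± 0.37% after romidepsin, 9.20 ± 0.12% after quisinostat and 6.36 ± 0.28% after mivebresib, and none of the 4 groups overlapped. ITGAV was at 44.0 ± 0.29% in the control and 44.1 ± 3.6% with mivebresib, where the libraries (41.5% and 46.7%) spanned the control values. Of the laminin-binding alpha chains, ITGA3 was thus the one whose share grew with mivebresib, while ITGA7 was at 4.94 ± 0.086% with quisinostat against 2.17 ± 0.12% in the control.

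Among the beta chains ITGB1 made up 58.4 ± 2.1% in the control (SD, n = 2), 59.8 ± 1.6% with romidepsin, 64.4 ± 0.96% with quisinostat and 73.5 ± 0.93% with mivebresib. ITGB8 was at 21.9 ± 1.5%, 20.3 ± 0.87%, 17.2 ± 0.0095% and 11.7 ± 0.22% in the same order. Control and romidepsin libraries overlapped for both chains, while the quisinostat and mivebresib libraries stood apart. In the laminin beta class LAMB1 held 57.2 ± 1.7% in the control and 37.6 ± 3.3% with mivebresib, where LAMB2 reached 61.9 ± 3.1%. LAMB3 stayed a minor chain at its highest, with 4.22 ± 0.22% of the laminin beta class in quisinostat against 0.722 ± 0.27% in the control. LAMA5 made up 69.2 ± 1.0% of the laminin alpha chains in the control and 77.7 ± 0.20% with mivebresib, and LAMA1 28.8 ± 0.69% and 20.6 ± 0.64%. Shares are relative within a class, so a share can grow where other chains fall. In the full fit ITGB1, LAMB2 and LAMA5 were not called with mivebresib against the control (log2 FC 0.35, 0.23 and 0.45). LAMC1 accounted for 99.2% to 99.6% of the gamma class in every group. With the longest transcript in place of all exons, ITGA3 held 28.5% and 49.2% of its class in the control and with mivebresib, so the absolute shares depend on the length used. Of the 38 chains, ITGAV and the nearly absent ITGA2B then changed direction between the control and mivebresib, ITGAV with 37.6% and 35.6%, so that ITGA3 exceeded ITGAV with mivebresib.

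**Figure D4:**
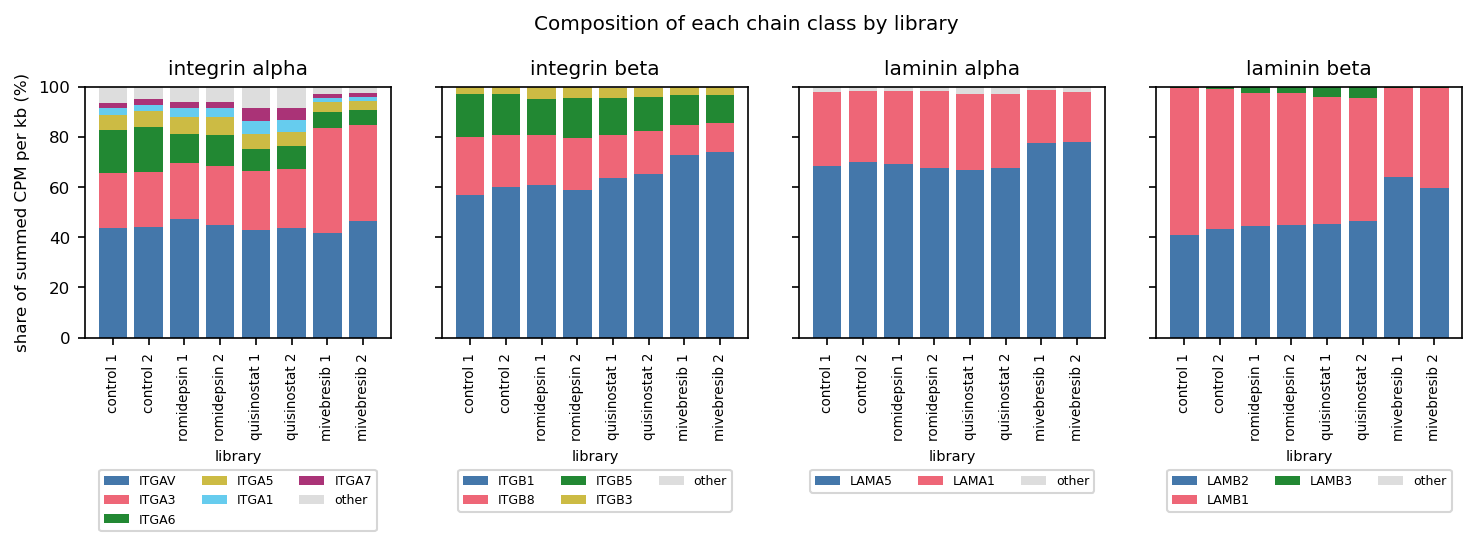
Stacked bars give the share (%) of each chain in the summed CPM per kb of exon of its class for the 8 libraries, in panels for integrin alpha, integrin beta, laminin alpha and laminin beta chains. Replicate bars look alike, and the mivebresib bars hold more ITGA3, ITGB1, LAMA5 and LAMB2 than the control bars. Of these chains, ITGA3 alone was called higher in level with mivebresib in the full fit.

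Genes that act with these chains were described from 3 lists. Of 33 tested integrin activators and adhesion adaptors, 4 rose and 6 fell with romidepsin, 4 rose and 16 fell with quisinostat and 3 rose and 13 fell with mivebresib, with median log2 FC of -0.084, -0.30 and -0.31 against -0.012, -0.0036 and 0.0067 over all genes. For all 3 lists the shares of all genes that rose and fell were those above, at 15.2% and 15.8% with romidepsin, 28% and 25.1% with quisinostat and 22.2% and 24.1% with mivebresib. Without control library 2 the counts were 7 and 11, 4 and 19, and 3 and 16, and without control library 1 they were 4 and 8, 5 and 16, and 4 and 13. FERMT3, the kindlin of blood cells that activates integrins, fell from 51.0 ± 0.60 CPM in the control (SD, n = 2) to 27.0 ± 0.24 with romidepsin and 10.0 ± 0.093 with quisinostat (log2 FC -0.92 and -2.35, adjusted p = 0.000124 and 7.78e-07), and was at 15.3 ± 0.31 with mivebresib. PARVA, the alpha-parvin that links integrin-linked kinase to actin, fell with quisinostat (log2 FC -0.98, SE 0.083, adjusted p = 3.32e-05). With mivebresib KANK1, a talin-binding protein at the rim of adhesions, and TNS3, a tensin, fell by 2.38 and 2.37 on the log2 scale (adjusted p = 1.52e-06 and 2.31e-06), while TLN2, a talin, rose by 0.66 (adjusted p = 0.00458) and BCAR1, the docking protein p130Cas, by 0.23 (adjusted p = 0.0433). KANK1 was at 163 ± 15 CPM in the control, 102 ± 6.5 with romidepsin (log2 FC -0.68, adjusted p = 0.000982), 97.1 ± 1.8 with quisinostat and 31.3 ± 0.78 with mivebresib. TNS1, another tensin, rose by 0.55 with romidepsin and 1.44 with quisinostat (adjusted p = 0.00989 and 2.28e-05). Smaller rises were those of FERMT2, the broadly expressed kindlin, with romidepsin (0.33, adjusted p = 0.013) and RSU1, a partner of PINCH, with quisinostat (0.27, adjusted p = 0.0224).

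Of 21 tested genes for other basement membrane components and laminin receptors, 5 rose and 1 fell with romidepsin, 9 rose and 4 fell with quisinostat and 4 rose and 7 fell with mivebresib (median log2 FC 0.14, 0.33 and -0.31). Without control library 2 the counts were 12 and 0, 14 and 4, and 5 and 6, and without control library 1 they were 4 and 2, 7 and 6, and 1 and 11. FREM2, a gene of this list that stayed below 5 CPM, went from 0.107 CPM in the control to 1.81 CPM with quisinostat. Among called genes with a group mean of at least 5 CPM, the largest rises were in the dystroglycan complex. SGCE, the epsilon-sarcoglycan, was at 0.453 ± 0.29 CPM in the control (SD, n = 2, 7 and 18 counts), 4.51 ± 0.089 with romidepsin and 13.7 ± 0.012 with quisinostat (log2 FC 3.31 and 4.91, adjusted p = 0.0002 and 4.73e-06), and it had 0 and 1 counts with mivebresib. DTNA, the alpha-dystrobrevin on the inner side of that complex, rose with all 3 drugs from 0.520 ± 0.17 CPM, by a log2 FC of 2.04, 3.44 and 1.59 in the order romidepsin, quisinostat, mivebresib (adjusted p = 0.000887, 1.08e-05 and 0.00175). BCAM, a laminin receptor of the immunoglobulin family, rose with mivebresib (0.41, adjusted p = 0.0374). DAG1, the dystroglycan that binds laminin outside the integrin family, fell with quisinostat from 703 ± 217 to 391 ± 24 CPM (SD, n = 2, log2 FC -0.85, adjusted p = 0.00507), and SPARC, a collagen-binding matrix protein, from 1003 ± 277 to 571 ± 26 CPM (log2 FC -0.81, adjusted p = 0.0039). SGCD, a sarcoglycan of the dystroglycan complex, fell with mivebresib from 34.6 ± 9.0 to 1.65 CPM (log2 FC -4.38, SE 0.25, adjusted p = 4.17e-06). NTN4, a laminin-related netrin, was at 39.1 ± 2.3 CPM in the control, 31.7 ± 0.55 with romidepsin (log2 FC -0.30, adjusted p = 0.0385), 42.5 ± 3.99 with quisinostat and 8.85 ± 0.31 with mivebresib. Of 22 tested ligands of integrins, 6 rose and 2 fell with romidepsin, 9 rose and 3 fell with quisinostat and 5 rose and 6 fell with mivebresib (median log2 FC 0.24, 0.40 and -0.019). Without control library 2 these were 15 and 2, 16 and 3, and 10 and 6, and without control library 1 they were 4 and 2, 8 and 4, and 3 and 8. THBS1, the matrix protein thrombospondin-1, fell with mivebresib from 30.8 ± 8.8 to 2.36 CPM (log2 FC -3.70, SE 0.23, adjusted p = 8.30e-06). NOV, a secreted CCN protein, fell with all 3 drugs, by 1.02, 2.06 and 2.36 on the log2 scale in the order romidepsin, quisinostat, mivebresib (adjusted p = 0.00214, 2.11e-05 and 1.59e-05). JAM3, a junctional adhesion molecule, rose with all 3, by 2.23, 4.72 and 1.18 (adjusted p = 0.000951, 3.39e-06 and 0.0179). CYR61, another secreted CCN protein, rose by 0.99 with romidepsin and 0.76 with mivebresib (adjusted p = 0.00347 and 0.00633), and LTBP1, which holds latent TGF-beta in the matrix, by 1.54 with quisinostat (adjusted p = 0.000413). The ICAM adhesion molecules ICAM3 and ICAM1, ligands of leukocyte integrins, fell by 0.90 with romidepsin and by 0.77 with quisinostat (adjusted p = 0.00757 and 0.00437). The drug comparisons share the control libraries, so these falls and rises are not independent of each other.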

How the data were processed

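Bulk RNA from MP38 cells was sequenced from strand-specific libraries as paired-end reads in 4 groups of 2 libraries. The authors made the deposited counts per gene symbol with BioJupies and did not normalize them. Per the labels the build is hg38, while the aligner, the annotation and whether counting used strand are not given in the sources used here. The log CPM and quantile-normalized tables of the authors were not used. Counts of all 8 libraries entered 1 edgeR 4.0.16 model in R 4.3.3 (TMM, filterByExpr by group, quasi-likelihood test, 15085 genes, Benjamini-Hochberg adjustment), with 4 residual degrees of freedom and a biological coefficient of variation of 0.0938. TMM sets changes relative to the bulk of genes. Calls used an adjusted p below 0.05 and, as a stricter rule, also a log2 FC past 1.5. Alternatives were DESeq2 1.42.0, limma-voom (limma 3.58.1), other scalings and filters, a replicate block, only the 4 libraries of a comparison and each library left out. The models were also run on simulated counts with a common spread and no shift between replicate libraries. That run therefore says nothing on the difference between the control libraries.

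Counts of pathway lists without each control library were added after seeing the data, from the same fits whose shares of all genes are given with the members. The members and lists were chosen with earlier results of these data known. Values were given per library for members called with a drug at a group mean of at least 5 CPM, and for others past a log2 FC of 1.5. List genes named were at most the 2 largest rises and 2 largest falls per drug among called genes with a group mean of at least 5 CPM. ITGB1, ITGAV, LAMA3 and the other uncalled members named were added for their role. The values of 1 member are not reported here, though it stays in the counts of members. Lengths and overlaps came from GENCODE on GRCh38, which matched all 38 members, and CPM per kb used the union of exons. Libraries held 28483235 to 29359024 counts, where 3 counts equal 0.0950 to 0.110 CPM. Counting intervals and floors cover counting error only. Replicates differed beyond sampling noise in every group (chi-square per degree of freedom 58.1 in the control and 9.52 to 9.79 elsewhere), so none was a duplicate. Other cell lines of the study were not analysed here. Analyses used Python 3.11.15 with pandas 2.3.3, and figures matplotlib 3.10.9.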

Additional observations from a re-analysis of the deposited data

How the results depend on the processing

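The SE of the log2 FC against the control was 0.55 to 0.59 for ITGAD, which had 4 to 12 counts per library. It was 0.13 for ITGB5 and 0.19 for ITGB1, the member with the highest level. What set the SE was not tested. Of 28 pairs of a member and a drug called against the control, 16 kept their call in every alternative that could be computed, and none changed direction. Of 414 combinations of an uncalled pair and an alternative, 33 changed direction, 8 of them without control library 2 and 5 without control library 1. The number of called members was 5 for romidepsin, 13 for quisinostat and 10 for mivebresib against the control. Requiring a log2 FC past 1.5 gave 1, 5 and 2, and 1, 3 and 3 for quisinostat against romidepsin, mivebresib against romidepsin and mivebresib against quisinostat, which is stricter by construction. A fit of only the 4 libraries compared gave 3 for romidepsin, 14 for quisinostat against romidepsin (9 in the full fit) and 20 for mivebresib against quisinostat (12 in the full fit). Leaving out 1 library gave 2 to 17 for romidepsin, 9 to 22 for quisinostat, 6 to 16 for mivebresib, 2 to 13 for quisinostat against romidepsin, 10 to 17 for mivebresib against romidepsin, 9 to 20 for mivebresib against quisinostat and 16 to 24 for the difference among the groups. The extremes were without control library 2 (17, 22 and 16), without romidepsin library 1 (2) and without mivebresib library 1 (6). Apart from the fits with 4 libraries, the cause was not tested. Except for the drugs against the control without each control library, the shares of all genes called in these fits are not given here. From the counts printed here alone, a shift of the members therefore cannot be told from a shift of the whole fit. Library size alone shifted the median of all genes with quisinostat to 0.20 and upper-quartile factors to 0.13, and gave 12 higher and 2 lower members in place of 9 and 4 for the former. The replicate block gave 4, 14 and 10 calls against the control and 19 among the groups. The labels number the libraries but do not say whether same-numbered ones were handled together. Correlations of their deviations across genes ran from -0.16 to 0.16. With a single difference per group, they cannot settle this. The block is therefore not a known pairing of samples. With the longest transcript as length, shares in the control and with mivebresib were 28.5% and 49.2% for ITGA3, 37.6% and 35.6% for ITGAV, 14.9% and 5.10% for ITGA6, 23.9% and 12.8% for ITGB8, 64.7% and 74.0% for LAMA5, and 60.9% and 41.3% for LAMB1.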
